A study of Rattus norvegicus with 6 samples.

Results

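The Hox genes were described here in rat dorsal root ganglia, which hold the cell bodies of the body's sensory neurons, 7 days after partial sciatic nerve ligation (pSNL, 3 libraries) or a sham operation (3 libraries). The members were all rat genes named Hox with a cluster letter from a to d and a number, and listed in at least 1 of the 6 libraries. That gave 24 genes of the 14346 listed in all, out of 39 Hox symbols in the RefSeq gene table. The ligature in pSNL closes on some of the axons of the sciatic nerve and spares others, and both groups had surgery. Strain, sex, age, the spinal level of the ganglia and pooling of animals are not given in the labels. Whether the libraries come from separate animals is not given, so a p-value here reflects library-to-library spread, some of which may be technical.

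Hox genes encode homeodomain transcription factors that give cells a position along the head-to-tail axis. They lie in 4 clusters, A to D, and genes at the same place in different clusters form a paralog group, numbered from 1 at the anterior end to 13 at the posterior end. Within a cluster, genes with low numbers are switched on first and further forward, and genes with high numbers later and further back. Neural crest derivatives, spinal cord, muscle connective tissue and fibroblasts keep parts of this pattern into adult life. Sciatic sensory neurons sit in lumbar ganglia, and in mouse the lumbar cord is the domain of paralog group 10, with groups 12 and 13 in the tail region.

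Of the 24 members, 21 matched by gene ID and 3 by transcript accession. They comprise 6 genes of cluster A, 8 of cluster B, 5 of cluster C and 5 of cluster D. The other 15 symbols are in none of the files and were not analysed here: Hoxa3, Hoxa4, Hoxa5, Hoxa9, Hoxa10, Hoxb1, Hoxb6, Hoxc6, Hoxc10, Hoxc11, Hoxc13, Hoxd8, Hoxd11, Hoxd12 and Hoxd13. Every profile below is therefore a profile over the 24 listed members. In paralog group 10 it rests on Hoxd10 alone. Between 19 and 23 members were listed per library, 18 were listed in all 6, and 3 were listed in 1.

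The libraries held 4310643 to 4416121 estimated counts, and the 16 Hox genes tested had a mean of 10.3 to 113 counts per library. CPM is the count scaled to library size, and 3 counts are 0.681 to 0.694 CPM. The injury gene Atf3 was at 97.6, 294 and 234 CPM in pSNL replicates 1 to 3 and at 11.5, 15.8 and 22.8 CPM in the sham replicates, and sensory neuron markers such as Prph were high in every library. Sham replicate 3 stood apart. All 14 markers on a list for central glia and central neurons were listed in it, with a summed level of 2120 CPM, against 34.1 to 62.0 CPM in the pSNL libraries and 31.0 and 31.6 CPM in sham replicates 1 and 2. Between 3 and 6 of these markers were at 0 in each of the other 5 libraries. Skeletal muscle markers (9 of 10 listed) summed to 1050 CPM in pSNL replicate 3 and 542 CPM in sham replicate 3, and to 13.5 to 19.9 CPM elsewhere. Values without sham replicate 3 stand beside the results it moves most, and values without pSNL replicate 3 follow the gene results.

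By the median over the 6 libraries, the Hox genes with the highest level per length were Hoxd1 and Hoxd9, both of cluster D. By the mean it was Hoxb8, at 14.4 FPKM against 14.1 for Hoxd1 and 13.3 for Hoxd9, through 40.3 FPKM in sham replicate 3. Levels between genes are compared in FPKM, the authors' value scaled for gene length and depth. Hoxd1 (gene ID 288151), which in mouse shapes how nociceptor axons branch, was at 13.1, 11.2 and 11.5 FPKM in pSNL replicates 1 to 3 and at 19.7, 14.3 and 15 FPKM in sham replicates 1 to 3. Hoxd9 (gene ID 688999), a gene of posterior trunk and hindlimb identity, was at 13.2, 10.5 and 16.3 FPKM in pSNL and 12.2, 12.8 and 14.8 FPKM in sham. Their ranges overlap, so neither stands above the other by more than the spread between libraries.

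A second tier held Hoxc9, Hoxb8, Hoxa7, Hoxc8 and Hoxb7, with medians over the 6 libraries of 10.2, 9.57, 9.35, 7.65 and 7.13 FPKM. Hoxc9 sets thoracic motor neuron identity in mouse and Hoxc8 is a gene of the brachial and upper thoracic cord. Hoxc9 was at 10.7, 9.72 and 11.3 FPKM in pSNL and 7.79, 8.56 and 10.8 FPKM in sham. Hoxc8 was at 7.83, 7.94 and 5.93 FPKM in pSNL and 6.76, 8.39 and 7.47 FPKM in sham. Neighbours in this order overlap between libraries. The next gene, Hoxb5, which acts in neural crest and enteric neuron development, had a median of 5.69 FPKM.

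Anterior genes other than Hoxd1 were lower. Hoxb3, Hoxc4, Hoxd3, Hoxd4 and Hoxb4, of paralog groups 3 and 4 and known from hindbrain and cervical levels, had medians of 3.69, 3.37, 3, 2.56 and 2.02 FPKM. Hoxb9 had a median of 3.37 FPKM and Hoxa6 of 2.23 FPKM. Hoxa2, a gene of hindbrain and second branchial arch identity, had a median of 0.99 FPKM, and Hoxc5, a gene of phrenic motor neurons in mouse, of 0.915 FPKM. Hoxb2, which acts in hindbrain patterning, was close to nothing, with 1 to 4 counts in 5 libraries and 0 in pSNL replicate 3. Down to Hoxb4, each gene's range over the 6 libraries overlapped that of the next in this order, and the range of Hoxa2 lay just below that of Hoxb4. In cluster D, Hoxd1 and Hoxd9 were above Hoxd3 and Hoxd4, which lie between them, in each of the 6 libraries. Hoxd10, the most posterior listed gene of that cluster, was low again, at 0.25 to 3.14 FPKM.

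**Figure D1:**
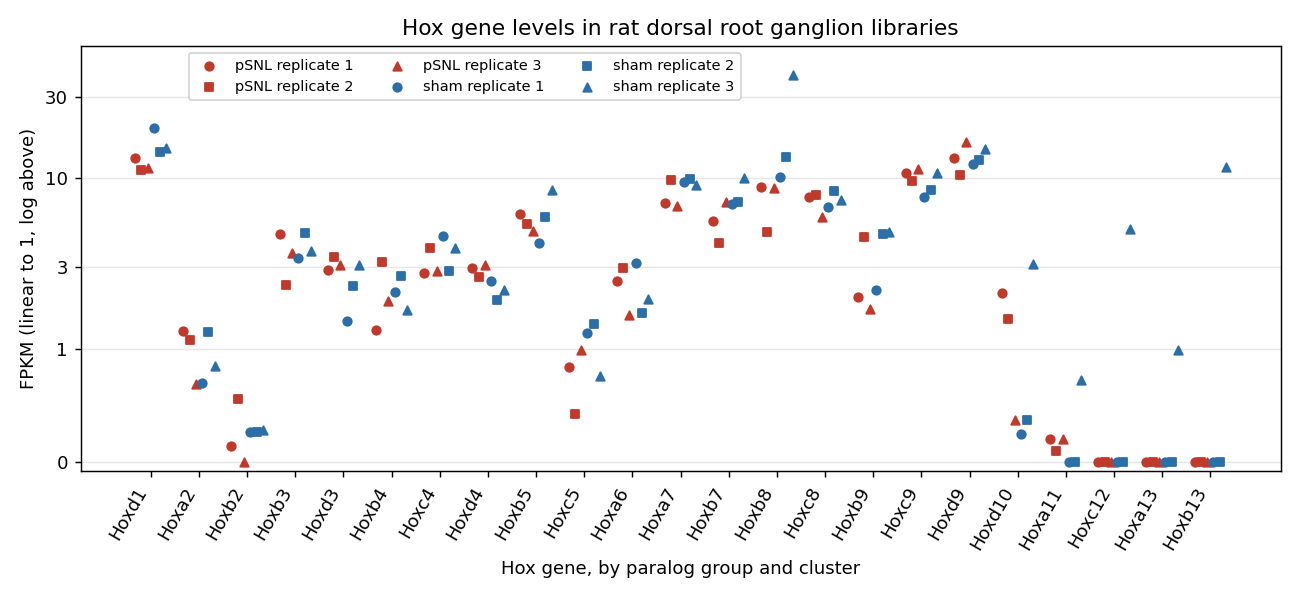
FPKM of the 23 listed Hox genes with at least 5 counts over all libraries (horizontal axis, by paralog group and then cluster) in each library, with pSNL in red left of sham in blue and replicate number by marker shape. The vertical axis is linear to 1 and logarithmic above. Hoxd1 and Hoxd9 have the highest medians, Hoxb8 reaches 40.3 in sham replicate 3, and Hoxc12, Hoxa13 and Hoxb13 are above 0 in sham replicate 3 alone.

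The start regions of 3 genes are shown as RefSeq sequence of the assembly GRCr8, which is not stated to be the build of the files. They are Hoxd1, the gene with the highest median, Hoxd10, the member of paralog group 10, and Hoxa13, listed in 1 library. The windows run from 250 bases before to 50 after the annotated start, 5′ to 3′ along the gene, and capitals mark each CpG. They lie at chr3:80072791-80073090 on the plus strand, chr3:80001697-80001996 on the plus strand and chr4:82691652-82691951 on the minus strand.
Hoxd1 promoter window: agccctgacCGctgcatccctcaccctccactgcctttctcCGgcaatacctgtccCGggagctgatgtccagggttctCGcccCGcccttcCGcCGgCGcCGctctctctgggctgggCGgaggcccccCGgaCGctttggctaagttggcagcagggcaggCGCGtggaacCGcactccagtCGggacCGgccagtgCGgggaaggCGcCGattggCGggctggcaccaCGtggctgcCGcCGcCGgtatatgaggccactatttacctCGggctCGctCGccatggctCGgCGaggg
Hoxd10 promoter window: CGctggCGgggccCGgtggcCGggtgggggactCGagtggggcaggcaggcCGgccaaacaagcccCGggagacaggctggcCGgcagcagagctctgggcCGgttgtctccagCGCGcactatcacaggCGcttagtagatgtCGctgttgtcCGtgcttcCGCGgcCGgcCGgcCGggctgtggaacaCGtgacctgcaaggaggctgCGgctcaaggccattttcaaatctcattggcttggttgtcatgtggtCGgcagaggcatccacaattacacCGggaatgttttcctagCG
Hoxa13 promoter window: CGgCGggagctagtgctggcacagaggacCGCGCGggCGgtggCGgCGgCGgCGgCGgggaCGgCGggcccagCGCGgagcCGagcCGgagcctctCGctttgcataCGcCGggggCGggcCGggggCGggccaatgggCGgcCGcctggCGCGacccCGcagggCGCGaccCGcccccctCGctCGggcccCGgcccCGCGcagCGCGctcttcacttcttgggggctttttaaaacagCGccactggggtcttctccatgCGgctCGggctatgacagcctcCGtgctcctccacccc
The table held windows for 11 of the 24 members. Their median GC content was 62.7%, against 51.7% over all 33469 windows, and their median number of CpG was 24, against 7 over all windows. The window of Hoxa13 held 42 CpG, that of Hoxd1 30 and that of Hoxd10 24, although Hoxa13 was listed in 1 library and Hoxd1 had the highest median. The Hox-Pbx composite site TGATNNAT, searched on both strands, was in 2 of the 11 windows (Hoxa2 and Hoxa7), and in 9.1% of all windows. The posterior Hox site CCAATAAA was in none of the 11 and in 1.17% of all windows. A match or its absence says only which letters are in the window.

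Summed over the 24 members, the Hox level was 96.7, 90.4 and 92.8 FPKM in pSNL replicates 1 to 3 and 99.7, 105 and 161 FPKM in sham replicates 1 to 3. Paralog groups 1 to 4 held 30.5%, 31.7% and 28.8% of it in the pSNL libraries and 35.1%, 29.0% and 19.1% in the sham libraries. Groups 5 to 9 held most of it throughout, at 68.1% ± 2.16 in pSNL and 67.6% ± 2.99 in sham (SD, n = 3 each). The peak was at group 9 in 5 libraries, with 26.8%, 27.3% and 31.5% in pSNL and 22.3% and 24.9% in sham replicates 1 and 2. In sham replicate 3 it was at group 8, with 29.7%, of which Hoxb8 was the larger part.

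Groups 10 to 13 held 2.40%, 1.77% and 0.614% of the summed level in pSNL replicates 1 to 3, and 0.251%, 0.354% and 13.4% in sham replicates 1 to 3. The sham mean of 4.67% ± 7.56 (SD, n = 3) is thus set by 1 library, and without it the sham mean was 0.302%, against 1.59% ± 0.905 in pSNL. Without pSNL replicate 3 the pSNL mean was 2.08%. Over only the Hox genes listed in all 6 libraries the means were 1.43% in pSNL and 0.938% in sham. The mean paralog number, weighted by FPKM, was 6.17, 6.15 and 6.34 in pSNL and 5.77, 6.18 and 7.34 in sham. Hoxb13, Hoxc12 and Hoxa13 are members only through sham replicate 3. The 13.4% and the 7.34 of that library are thus partly set by the choice of members. In the 5 libraries other than sham replicate 3, group 9 held 22.3% to 31.5% and group 10 held 0.251% to 2.19%. By cluster, D held 34.9% ± 2.35 in pSNL and 30.1% ± 6.26 in sham (SD, n = 3 each), and B held 29.3% ± 1.38 in pSNL and 39.0% ± 10.5 in sham. Cluster C held 23.3% ± 0.874 in pSNL and 19.4% ± 1.70 in sham, and cluster A held 12.5% ± 2.86 in pSNL and 11.5% ± 2.70 in sham. In sham replicate 3 cluster B reached 50.3%, against 29.6% and 37.2% in the other sham libraries. Without that library the sham means were 33.4% for B, 33.3% for D and 32.0% for paralog groups 1 to 4.

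**Figure D2:**
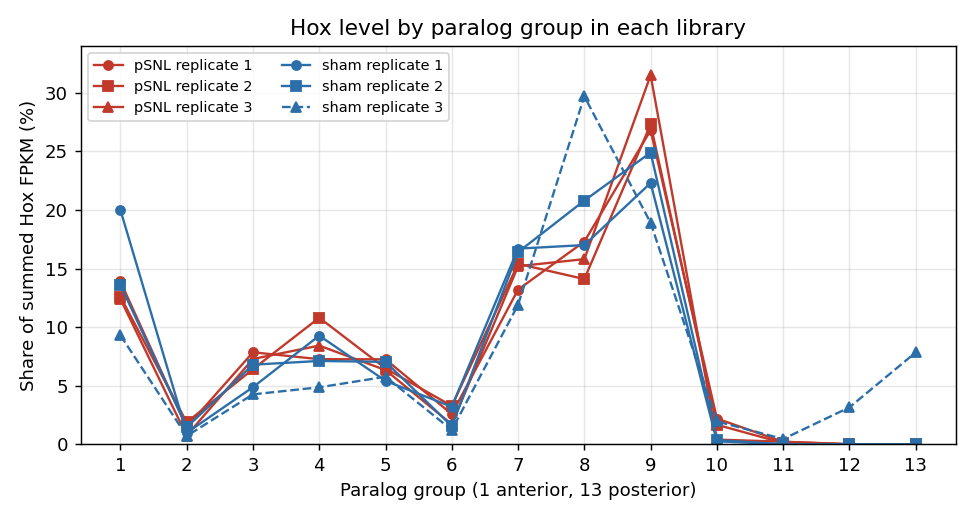
Share of the summed Hox FPKM (vertical axis, percent) in paralog groups 1 to 13 (horizontal axis), 1 line per library, pSNL in red and sham in blue, with sham replicate 3 dashed. In 5 libraries the share peaks at group 9, while sham replicate 3 peaks at group 8 with 29.7% and holds 3.15% at group 12 and 7.84% at group 13.

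The posterior end of the clusters was read in sham replicate 3 and hardly elsewhere. Hoxb13 (gene ID 303480), which in mouse limits growth of the tail and caudal spinal cord, had 0 counts in each pSNL library, 0 in sham replicates 1 and 2 and 67 in sham replicate 3 (exact 95% Poisson interval 51.9 to 85.1, counting error only). That is 15.4 CPM, 22.2-fold the 0.694 CPM taken as the limit for a count of 0 in any of the other 5 libraries. The limit was set at 3 counts per library, while the same interval for a count of 0 reaches 3.69. Hoxc12 (gene ID 300262), of paralog group 12, had 18 counts there (10.7 to 28.4) and Hoxa13 (gene ID 500129), a gene of digits and the urogenital tract, had 6 (2.20 to 13.1), and both had 0 in the other 5 libraries. These 2 were at 5.96-fold and 1.99-fold the same limit. All of these folds leave out counting error, and the interval of Hoxa13 reaches below 3 counts.

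Genes listed in sham replicate 3 alone numbered 161 of 14346 (1.12%), and 25 (0.174%) of them had at least 5 counts. The 3 Hox genes are among the latter. The other libraries had 65 to 96 genes listed in them alone, of which 0 to 2 had at least 5 counts, and none was a Hox gene. Hoxa11 (gene ID 368057), which patterns the forearm, lower leg and kidney, had 2, 1 and 2 counts in the pSNL libraries and 0, 0 and 7 in the sham libraries. Hoxa11-as, the antisense gene beside it, had 1, 1 and 2 counts in pSNL and 1, 0 and 8 in sham. Reads of the pair cannot be told apart, since it is not given whether counting used strand. Evx1, the homeobox gene next to Hoxa13, had 0 counts in each pSNL library and 0, 0 and 5 in the sham libraries. Hoxa11-as and Evx1 were singled out after their values were seen.

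Hoxd10 (gene ID 303991), which in mouse specifies lumbar motor neurons, followed another pattern. It had 17, 12 and 3 counts in pSNL replicates 1 to 3 and 2, 3 and 25 in sham replicates 1 to 3. Pooled over groups 10 to 13, counts were 19, 13 and 5 in pSNL and 2, 3 and 123 in sham. Sham replicate 3 and pSNL replicates 1 and 2 were thus the high libraries for Hoxd10, while Hoxb13, Hoxc12 and Hoxa13 were at 0 in both of these pSNL libraries. The rise in sham replicate 3 was not shared by all members. In CPM, 15 of the 24, among them Hoxa7, Hoxc8, Hoxc9, Hoxd9 and Hoxd1, lay there within the range of the other 5 libraries. The 9 above that range were Hoxb13, Hoxc12, Hoxa13, Hoxa11, Hoxd10, Hoxb5, Hoxb7, Hoxb8 and, by a small margin, Hoxb9.

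The central markers were high in the same library as the posterior Hox genes. Aqp4, a water channel of astrocytes, was at 455 CPM in sham replicate 3, and Slc32a1, a transporter of inhibitory neurons, at 60.9 CPM, where it was at 0 in the other 5 libraries. These 2 examples were picked after their values were seen. Summed sensory neuron markers were at 11100 CPM in sham replicate 3, against 13800 to 14500 CPM in the pSNL libraries and 14100 and 14300 CPM in the other sham libraries. Skeletal muscle markers were higher in pSNL replicate 3, where Hoxb13, Hoxc12 and Hoxa13 were at 0, than in sham replicate 3. The part of central or muscle tissue in the Hox profile of that library was not tested.

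**Figure D3:**
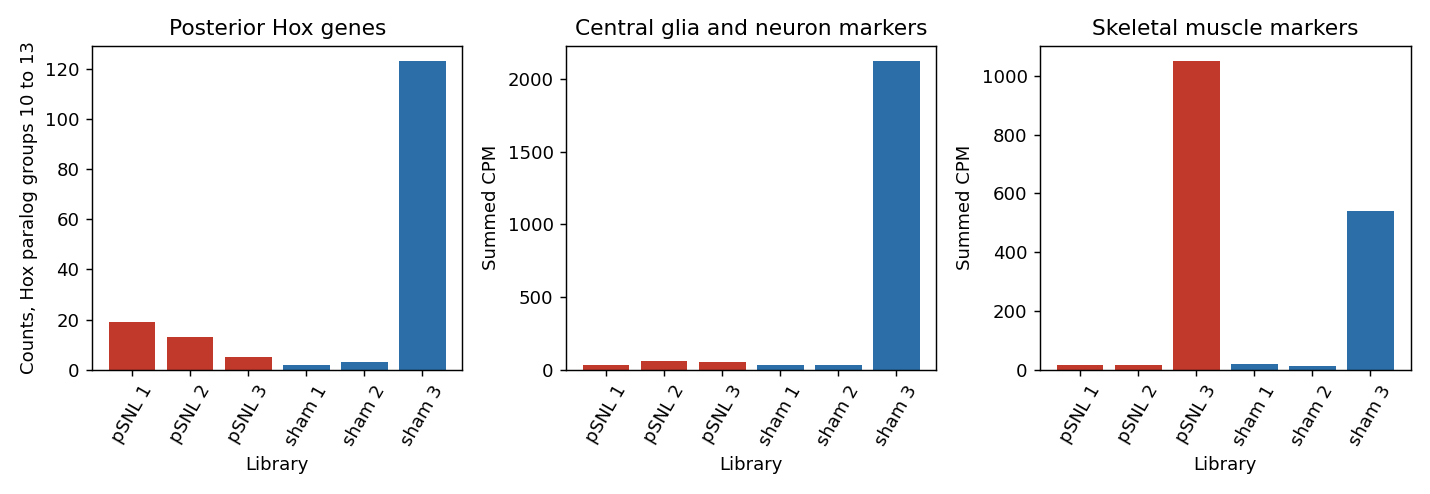
Bars per library (pSNL in red, sham in blue): left, counts of the listed Hox genes of paralog groups 10 to 13; middle and right, summed CPM of the central and the skeletal muscle markers. Posterior Hox counts and central markers are highest in sham replicate 3 (123 counts and 2120 CPM), while muscle markers are highest in pSNL replicate 3 (1050 CPM).

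Outside sham replicate 3 the Hox pattern was close between libraries. Across the 24 genes, the correlation of log2(FPKM + 0.1) lay between 0.93 and 0.98 (Pearson) and between 0.92 and 0.97 (Spearman) for the 10 pairs of other libraries. It lay between 0.55 and 0.67 and between 0.66 and 0.72 for the 5 pairs with sham replicate 3. Hoxb13, Hoxc12 and Hoxa13 are members only through sham replicate 3. They draw down the pairs with it and, being at 0 in the other 5 libraries, draw up the rest. The gap between these pairs is thus partly set by the choice of members. The correlations are descriptions across genes, which share libraries and gene length, and genes are not replicates. The variance of scaled counts over their mean, which is 1 for counting error alone, had a median of 1.89 over the 16 tested Hox genes without sham replicate 3. It was 1.74 over the 4803 tested genes of the same range of mean counts. Hoxc8, Hoxb5, Hoxc9 and Hoxd4 were at 0.689, 0.771, 0.835 and 0.914, below the 1 of counting error alone. With 5 libraries this ratio is measured only loosely. The highest were Hoxd1 at 7.04, Hoxd10 at 6.05 and Hoxb8 at 4.34. With sham replicate 3, Hoxb8 was at 47.7 and Hoxb5 at 2.36.

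The comparison of pSNL with sham asks whether the Hox genes of the ganglion differ after nerve injury. Of the 24 members, 16 passed edgeR's default filter on low counts, and 8, among them Hoxa2, Hoxa6, Hoxb2 and Hoxb13, did not. None of the 16 passed an adjusted p of 0.05 in edgeR's quasi-likelihood test, where 0.46% of the 11091 genes tested did (0.442% higher and 0.018% lower). An unadjusted p under 0.05 was found for 2 (Hoxd1 and Hoxb8), where 15.5% of all tested genes had one, and DESeq2 called 1 (Hoxb8), where it called 3.02% of all. The 16 had a median log2 fold change of -0.17, against -0.0024 over all tested genes, and 11 were negative, where 50.6% of all were. Of the injury genes used to check the group labels, Sprr1a (edgeR adjusted p = 0.00493) and Gap43 (0.0416) passed the threshold. Atf3, at a log2 fold change of 3.64, did not (0.0891), so a large change can also miss it here. In bulk ganglia, fewer cells of a type and less RNA per cell cannot be told apart.

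Groups did not overlap for 3 of the 16 (Hoxd1, Hoxb8 and Hoxd4), a state found for 21.5% of all genes in the test. Hoxd1 and Hoxb8 were lower in pSNL, where 10.4% of all were lower with no overlap, and Hoxd4 was higher, where 11.1% were. Hoxd1 was at 23.6, 20.6 and 21.3 CPM in pSNL and at 36.4, 26.4 and 27.1 CPM in sham. Each pSNL library lay below each sham library, and the log2 fold change was -0.46 ± 0.16 (SE; adjusted p = 0.213 with edgeR). With each library left out in turn it lay between -0.54 and -0.29. The weaker end came without sham replicate 1, the highest library.

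Hoxb8 (gene ID 24457), whose loss in mouse causes compulsive grooming and blunted pain responses, was at 8.40, 4.62 and 8.49 CPM in pSNL and at 9.86, 12.9 and 38.1 CPM in sham. Each pSNL library was again below each sham library, and sham replicate 3 was far above the rest. The log2 fold change was -1.50 ± 0.59 (edgeR adjusted p = 0.304; DESeq2 adjusted p = 0.0334). Without sham replicate 3 it was -0.66 ± 0.31 (edgeR adjusted p = 0.357). The DESeq2 call was made with that library, in which central markers were at 2120 CPM. DESeq2 was not run without it, and the part of central tissue in the call was not tested.

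Genes for miR-196 lie inside clusters A, B and C, and in mouse this miRNA directs cleavage of Hoxb8 RNA. Among the tested Hox genes, Hoxb8 had the highest variance of scaled counts over their mean across the 6 libraries (47.7). For that reason the 3 rat forms of miR-196 from RefSeq are shown, with the seed (bases 2 to 8) in capitals.
rno-miR-196a-5p: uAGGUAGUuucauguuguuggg
rno-miR-196b-5p: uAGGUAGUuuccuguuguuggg
rno-miR-196c-5p: uAGGUAGUuucguguuguuggg
All 3 share 1 seed. The gene Mir196b had 2 counts over the 6 libraries and Mir10a, from cluster B, had 1. These are reads of the miRNA genes in libraries of long RNA and do not measure the mature miRNA.

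Hoxd4 was at 7.95, 7.17 and 8.49 CPM in pSNL and at 6.88, 5.28 and 5.97 CPM in sham, with each pSNL library higher (log2 fold change 0.38 ± 0.25, edgeR adjusted p = 0.502). Its neighbour Hoxd3 was at 7.26, 8.78 and 8.03 CPM in pSNL and at 3.67, 5.97 and 7.81 CPM in sham, where sham replicate 3 overlaps the pSNL range (0.46 ± 0.30, adjusted p = 0.503). Without sham replicate 3 the value of Hoxd3 was 0.73 ± 0.31 (adjusted p = 0.324). Hoxc9 was at 9.54, 8.78 and 10.3 CPM in pSNL and at 7.11, 7.80 and 9.65 CPM in sham (0.22 ± 0.23, adjusted p = 0.683). Hoxd9 was at 24.1, 19.4 and 30.5 CPM in pSNL and at 22.9, 23.9 and 27.1 CPM in sham, with means of 24.7 ± 5.57 CPM in pSNL and 24.6 ± 2.20 CPM in sham (SD, n = 3 each).

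The 6 tested genes of cluster B all had a negative fold change, with a median of -0.34 on the log2 scale, and of -0.28 without sham replicate 3. Without that library Hoxb5 turned positive, at 0.10 ± 0.28. Hoxb7 was at 6.81, 5.09 and 8.94 CPM in pSNL and at 8.71, 8.95 and 12.2 CPM in sham (-0.52 ± 0.28, edgeR adjusted p = 0.406). Hoxb5 was at 9.31, 8.32 and 7.57 CPM in pSNL and at 6.42, 9.18 and 12.9 CPM in sham (-0.18 ± 0.28, adjusted p = 0.814). Hoxb9, whose groups overlap, was at 1.82, 4.16 and 1.61 CPM in pSNL and at 2.06, 4.36 and 4.37 CPM in sham. Hoxb3 and Hoxb4 had log2 fold changes of -0.16 ± 0.30 and -0.03 ± 0.40.

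In cluster C, Hoxc5 was at 2.27, 1.16 and 2.75 CPM in pSNL and at 3.44, 3.90 and 2.07 CPM in sham (log2 fold change -0.60 ± 0.44, edgeR adjusted p = 0.548). The groups overlap through sham replicate 3, and without it the value was -0.83 ± 0.46 (adjusted p = 0.446). Hoxc4 and Hoxc8 had log2 fold changes of -0.26 ± 0.28 and -0.06 ± 0.23. Of cluster A, Hoxa7 was the member tested, at 6.36, 8.78 and 6.19 CPM in pSNL and 8.71, 8.95 and 8.04 CPM in sham (-0.27 ± 0.24, adjusted p = 0.637). Hoxa7 and Hoxc8 had estimated counts that were not whole in all 6 libraries, and 10 of the 24 members had such a count in at least 1. How reads were shared between close paralogs or overlapping transcripts in these genes is thus uncertain.

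Hoxd10 depended most on a single library. It was at 3.86, 2.77 and 0.688 CPM in pSNL and at 0.458, 0.689 and 5.75 CPM in sham, and its log2 fold change was 0.09 ± 0.96 (adjusted p = 0.975 with edgeR). Without sham replicate 3 it was 2.03 ± 0.82 (adjusted p = 0.295), and without both replicate 3 libraries 2.47 ± 0.60 (adjusted p = 0.0898). The second of these alternatives was chosen after the data were seen. At 2 to 25 counts per library, with pSNL replicate 3 as low as sham replicate 2, neither value passed the threshold. Without sham replicate 3, 17 members were tested and none passed the threshold, where 0.293% of genes did. An unadjusted p under 0.05 was then found for 3, where 14.4% of genes had one, and groups did not overlap for 6, where 33.7% did not. Without pSNL replicate 3, the library highest in muscle markers, no Hox gene passed the threshold either. The log2 fold change was then -0.74 for Hoxb7, -0.86 for Hoxc5, -1.64 for Hoxb8, -0.44 for Hoxd1 and 0.52 for Hoxd10.

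**Figure D4:**
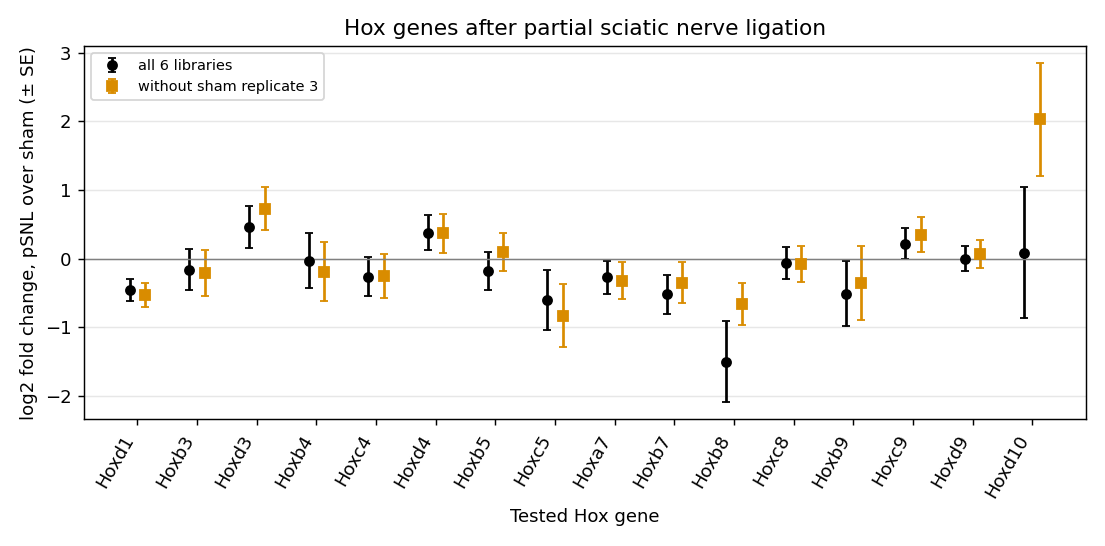
log2 fold change of pSNL over sham (vertical axis, with SE bars) for the 16 tested Hox genes, from all 6 libraries (black circles) and without sham replicate 3 (orange squares). Hoxb8 moves to -0.66 and Hoxd10 to 2.03 when that library is left out, and none of the 16 passes the threshold in either fit.

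Markers of other cell types were summed in the same libraries. Fibroblast markers (10 of 10 listed) summed to 4340 to 7160 CPM in pSNL and to 1810 to 3880 CPM in sham, 9 of 9 tested had a positive fold change and 1 (Mgp) passed the threshold, where 0.442% of all tested genes passed it as higher. No marker of the next 3 lists passed. Macrophage markers (9 of 9 listed) summed to 290 to 483 CPM in pSNL and 167 to 212 CPM in sham. Endothelial and pericyte markers (8 of 8) lay between 207 and 238 CPM in pSNL and between 196 and 232 CPM in sham. Satellite glia and Schwann cell markers (9 of 9) summed to 18300 to 27600 CPM in pSNL and 16600 to 19000 CPM in sham. In none of these 4 lists was a member at 0 in any library. Their part in the Hox values was not tested.

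Hox proteins bind DNA with partners of the TALE class (Pbx, Meis and Pknox). All 11 listed TALE genes were tested, none passed the threshold, 3 had an unadjusted p under 0.05, and the groups did not overlap for 6, with a median log2 fold change of -0.18. Over all tested genes, 15.5% had such a p and 21.5% had no overlap. Meis3 was at 43.4, 53.2 and 47.5 CPM in pSNL and at 34.8, 33 and 31 CPM in sham, each pSNL library being higher (0.54 ± 0.12, edgeR adjusted p = 0.0823). Meis1 was at 3.18, 3.70 and 4.36 CPM in pSNL and at 5.50, 5.28 and 14.9 CPM in sham, with its highest value in sham replicate 3 (-1.19 ± 0.44, adjusted p = 0.240). Without that library it was -0.53. Pknox1 was at 8.17, 4.85 and 3.90 CPM in pSNL and at 2.75, 3.44 and 2.99 CPM in sham (0.88 ± 0.36, adjusted p = 0.282).

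Polycomb and Trithorax proteins keep Hox genes silent or active. None of the 14 tested passed the threshold, 7 were positive and 7 negative, and 2 had an unadjusted p under 0.05. Of all tested genes, 15.5% had such a p and 50.6% were negative. Ezh2, the Polycomb methyltransferase, was at 13.6, 16.0 and 12.2 CPM in pSNL and at 11, 8.95 and 8.27 CPM in sham (0.56 ± 0.21, edgeR adjusted p = 0.244). Phc2 and the demethylase gene Kdm6b had log2 fold changes of 0.22 ± 0.09 and 0.48 ± 0.22 (adjusted p = 0.259 and 0.356).

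Of the axial signals and caudal factors, which include retinoic acid enzymes and receptors that set Hox borders in the embryo, 14 were tested. None passed the threshold, 2 had an unadjusted p under 0.05, where 15.5% of all tested genes had one, and 10 were positive, where 50.6% of all were negative. The 3 with the smallest p were Tgfbr1 (0.45 ± 0.17), Rxrg (0.39 ± 0.17) and Aldh1a1 (0.48 ± 0.23), with edgeR adjusted p of 0.253, 0.321 and 0.365. Of the limb and regional position genes 4 were tested and of the genes flanking the clusters 10, and none passed the threshold or had an unadjusted p under 0.05. Their medians were 0.08 and -0.04 on the log2 scale. The smallest p in the first of these lists belonged to Tbx18 (0.48 ± 0.36), Tbx3 (0.26 ± 0.24) and Tbx2 (-0.19 ± 0.26), and in the second to Hibadh (-0.24 ± 0.12), Cbx5 (-0.37 ± 0.25) and Calcoco1 (0.13 ± 0.09). Tbx4, a hindlimb gene, had 2 to 9 counts per library and was not tested. DESeq2 called no gene of these 5 lists.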

How the data were processed

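RNA of 6 ganglion libraries was sequenced, 3 after pSNL and 3 after sham, grouped by title. Per the file headers, the deposited files give expected count, FPKM and length in bases per gene. CASAVA 1.4 and Bowtie2 were used, per the submitters' processing notes, and quantifier, build, annotation and strand setting were not given in the sources used here. Each file lists values above 0, and an absent gene was taken as 0. IDs were matched to symbols with a RefSeq table of GRCr8, 14227 by gene ID and 16 by transcript, and 103 were kept by ID. The members and lists were chosen with earlier results of these data known.

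Expected counts, estimated by the authors, were rounded. The whole table was tested with edgeR 4.0.16 in R 4.3.3 (TMM factors, default filter on low counts, robust quasi-likelihood fit, Benjamini-Hochberg adjustment over 11091 genes, threshold 0.05). SE came from the test statistic, and CPM uses TMM-scaled library sizes. FPKM computed by the authors was used for levels between genes, with no filter. The fit was tested on simulated data with the same spread setting for every gene and no library set apart. That test does not cover a library such as sham replicate 3. Alternatives were DESeq2 1.42.0, other scalings and filters, a replicate block and leaving out libraries. Every tested Hox gene was named, with the 3 smallest p of each other list; 1 untested member is not reported here by itself. Depth was 4310643 to 4416121 counts, and counting intervals and limits leave out the spread between libraries and duplicate reads.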

Additional observations from a re-analysis of the deposited data

How the results depend on the processing

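Of the 16 tested Hox genes none passed the threshold under any edgeR alternative, and 1 (Hoxb8) did with DESeq2. No gene of the 5 other lists passed under any alternative. The count over all genes, 51, was 89 with no filter on low counts, 334 with DESeq2, 102 without both replicate 3 libraries (added after the data were seen) and, with 1 library left out, 217, 9 and 96 without pSNL replicates 1, 2 and 3 and 21, 5 and 33 without sham replicates 1, 2 and 3. With the replicate number as a block it was 111; same-numbered libraries deviated together by correlations of 0.03, 0.01 and 0.12, so the numbers were not taken as pairs, and the block made no Hox gene pass. The median log2 fold change of the Hox genes, -0.17, lay between -0.25 and -0.11 over all alternatives. The shares of paralog groups 10 to 13 moved by less than the SD between libraries, which in sham is wide, at 7.56 percentage points with replicate 3. Of the other shares 108 moved by less than that spread and 12 by more, 11 of these with no division by length. The 108 include means of 1 group with a library of the other group left out, which cannot move. Leaving out 1 of a group's own 3 libraries cannot move its mean by as much as that SD either. This also holds for groups 10 to 13, where the sham mean went from 4.67% to 0.302% without sham replicate 3. For these rows a move below the SD is no sign of stability. With no division by length the pSNL mean was 41.1% in place of 30.3% for groups 1 to 4, and 46.6% in place of 34.9% for cluster D. Signs turned for genes near 0. Hoxd9 was -0.0038 with DESeq2 and with its size factors, -0.0025 with no filter, -0.01 with the block, -0.11 without both replicate 3 libraries, and -0.18 to 0.14 with 1 library left out. Hoxb3 spanned -0.39 to 0.06, Hoxb4 -0.45 to 0.24, Hoxb5 -0.39 to 0.10, Hoxc8 -0.15 to 0.05 and Hoxd10 -0.40 to 2.03 with 1 library left out. Without both replicate 3 libraries Hoxb5 was 0.18, Hoxc8 0.03 and Hoxd10 2.47. The cause of these changes was not tested. At a mean of 10.3 to 113 counts per library the SE of a Hox log2 fold change was 0.16 to 0.96, which limits what could be detected.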
